A study of Mus musculus with 6 samples.

Results

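The DEAD and DEAH box proteins are enzymes that use ATP to unwind RNA or to strip proteins from it. They were taken here as the protein-coding genes whose name starts with Ddx or Dhx and a number and that lie on chromosomes 1 to 19, which gave 51 of the 54532 genes in the deposited table, 35 named Ddx and 16 named Dhx. RNA-seq was made from 6 mouse pancreatic islet samples that the labels call beta cells, 3 control libraries of genotype wt and 3 Bcas2 conditional knockout libraries labelled Cko (Bcas2 cKO below), which the design text names a knockdown. All samples carry the same tissue and cell type labels, and no treatment is named. The sources used here do not give the promoter that drives Cre, which exons of Bcas2 were removed, the age and sex of the mice, or whether a library holds 1 animal or a pool. The p-values therefore measure only how these libraries spread, and that spread may be technical. In the table the control libraries are numbered 1, 3 and 4 and the knockout libraries 3, 4 and 5, while the labels number the knockout samples 1, 3 and 4. Bcas2 cKO library 5 was therefore used as a member of its group with no sample of its own.

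BCAS2 belongs to the Prp19 complex, a set of proteins that joins the spliceosome as it becomes active. The spliceosome is rebuilt at each intron, and a set of these helicases drives its steps in turn: DDX39B and DDX46 when the U2 particle settles on the branch site, DDX23 and DHX16 around activation, DHX38 between the 2 chemical steps, DHX8 at the release of the spliced mRNA and DHX15 at the release of the intron. Other members shape ribosomal RNA in the nucleolus, carry mRNA out of the nucleus, hold or decay it in the cytoplasm, sense viral RNA or serve the mitochondrial ribosome. The question of the comparison is which helicase transcripts differ in level when Bcas2 is reduced, with the spliceosomal helicases taken apart from the others.

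The family is named for 4 residues of its ATP-binding core, Asp-Glu-Ala-Asp or Asp-Glu-Ala-His. The 36 coding bases around that place are shown for the members that the results turn on, because they are the feature by which the family is defined. They are from the longest coding sequence of each gene in GENCODE M21 (GRCm38), 5′ to 3′, with the 12 bases that code for the motif in capitals.
Dhx38: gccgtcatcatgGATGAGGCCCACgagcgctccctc
Dhx8: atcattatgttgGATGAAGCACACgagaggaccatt
Dhx16: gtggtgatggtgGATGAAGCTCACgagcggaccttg
Dhx15: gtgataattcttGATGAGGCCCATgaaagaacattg
Ddx23: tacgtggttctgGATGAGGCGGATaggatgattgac
Ddx46: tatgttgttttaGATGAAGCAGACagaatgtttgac
Ddx5: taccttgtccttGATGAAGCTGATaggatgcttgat
Ddx17: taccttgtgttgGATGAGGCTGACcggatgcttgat
Ddx31: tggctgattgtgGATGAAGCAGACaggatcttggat
Ddx54: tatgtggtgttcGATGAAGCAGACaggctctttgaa
Ddx39b: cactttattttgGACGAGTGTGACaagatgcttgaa
Ddx39: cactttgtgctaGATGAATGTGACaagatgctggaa
Ddx21: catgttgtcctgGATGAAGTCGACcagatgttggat
Ddx50: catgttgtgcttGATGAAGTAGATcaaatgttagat
The 4 Dhx genes of the core spliceosome end the motif on a histidine codon and Ddx23 and Ddx46 on an aspartate codon, while Ddx39 and Ddx39b carry a cysteine codon at the third place (DECD) and Ddx21 and Ddx50 a valine codon (DEVD). In frame, behind 2 codons for hydrophobic or small residues, 49 of the 51 members held exactly 1 of the 8 spellings searched (DEAD, DEAH, DECD, DECH, DEIH, DEVH, DEVD and DEID). DEAD was found in 26 members, all named Ddx. DEAH was found in 9 members, 8 of them named Dhx and the other Ddx11, a DNA helicase. Of the rest, 5 had DEVH, 3 DEVD, 2 DECD, 2 DECH and 2 DEIH, and Ddx52 and Dhx32 had none of them.

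Bcas2 itself, on chromosome 3 at 103171655 to 103179166 (GRCm38), had 10.3, 15.04 and 11.2 FPKM (fragments per kilobase of gene, scaled to the depth of the library) in control libraries 1, 3 and 4, against 8.76, 8.40 and 9.14 in Bcas2 cKO libraries 3, 4 and 5. Every knockout library was below every control library, with a log2 fold change of -0.42 (SE 0.13). It did not pass the limma test (adjusted p 0.083). Between 15170439 and 16904326 reads on genes were recovered per library from the FPKM. Other cells and states of the preparation moved with the groups. The 10 listed beta cell markers summed to between 166110 and 265530 FPKM in control and between 108890 and 128740 in Bcas2 cKO, with 3 of 10 having fallen and none risen with limma. At an unadjusted p under 0.05, 4 were lower and 1 higher, and with limma voom on recovered reads 6 fell and 1 rose. The 16 acinar cell markers summed to between 4169 and 9943 FPKM in control and between 12319 and 38505 in the knockout, a ratio of the means of 3.56. All 16 were higher without overlap, 7 of them risen with limma and 16 with voom. Rbpjl, 1 of the 7, averaged 0.607 FPKM in control and 2.37 in the knockout. It thus reached the mean of 1 FPKM needed for the test only through the group where it was high. The 11 immediate early and heat shock genes summed to between 725 and 2007 FPKM and between 4517 and 5736. Of the 11, 8 rose, all of them immediate early genes. The heat shock genes Hspa1a and Hspa1b overlapped between the groups and did not pass (limma adjusted p 0.669 and 0.683). The 14 macrophage and lymphocyte markers summed to between 204 and 270.2 FPKM and between 269.8 and 352, just overlapping. Of the 12 tested, 6 rose and none fell with limma (Cd79a was lower at an unadjusted p under 0.05). The 7 ductal markers summed to between 184 and 231 FPKM and between 428 and 577, a ratio of 2.43, with 2 of the 5 tested risen. These were Krt8 (means of 83.6 and 289 FPKM) and Krt18 (73.1 and 161), which held most of the sum. Krt7 was lower without overlap (28.8 and 22.2 FPKM) and did not pass with limma. At an unadjusted p under 0.05, 2 ductal markers were higher and 1 lower, and with voom 2 rose and 1 fell. The stellate and fibroblast markers overlapped, at 9.98 to 12.8 FPKM against 12.2 to 28.3, and none of the 5 tested rose with limma (1 higher at an unadjusted p under 0.05, 1 risen with voom). The sums of the alpha, delta and PP cell markers, of which 2 of 7 rose, overlapped too. So did those of the 6 endothelial markers, of which none was called by limma or voom or had an unadjusted p under 0.05. No listed marker was at 0 in every library. The part of these shifts in the values below was not tested, and in bulk RNA fewer cells of a type and less RNA per cell cannot be told apart.

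Of the 51 helicases, 48 averaged 1 FPKM or more and were tested; 8 of them rose in Bcas2 cKO (16.7%), 1 fell (2.08%) and 39 did not pass the test (limma on log2(FPKM + 1), with a Benjamini-Hochberg adjusted p under 0.05 over the 13723 genes of that level). Over all genes tested, 6.97% rose and 7.55% fell. The genes that rose were Ddx31, Ddx54 and Ddx51 of ribosome assembly, Dhx38 of the core spliceosome, Ddx42 and Ddx39 of the wider splicing set, Ddx1 and Dhx30, and the gene that fell was Ddx25. Their ratios of mean FPKM lay between 1.25 for Ddx42 and 1.87 for Ddx31 among the rises, and that of Ddx25 was 0.706. The median log2 fold change was 0.06 over the 48 helicases and -0.03 over all genes tested, and 30 of the 48 were above 0. The values of the 3 control and 3 Bcas2 cKO libraries did not overlap for 20 of the 48, 14 of them higher and 6 lower in Bcas2 cKO. That is 41.7%, beside 38.0% of all genes tested. Leaving out 1 library at a time left 2 to 5 rises among the helicases, with 2 left without control library 4 or Bcas2 cKO library 3. Ddx31 and Ddx54 kept their calls in all 6 of these fits. The counts also depended on scaling. With the FPKM divided by each library's share of reads outside the hormone genes, a setting chosen after seeing the data, 2 helicases rose (Ddx31 and Ddx54) and 3 fell (Ddx17, Ddx6 and Ddx25), while 630 of all genes rose and 1870 fell.

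**Figure D1:**
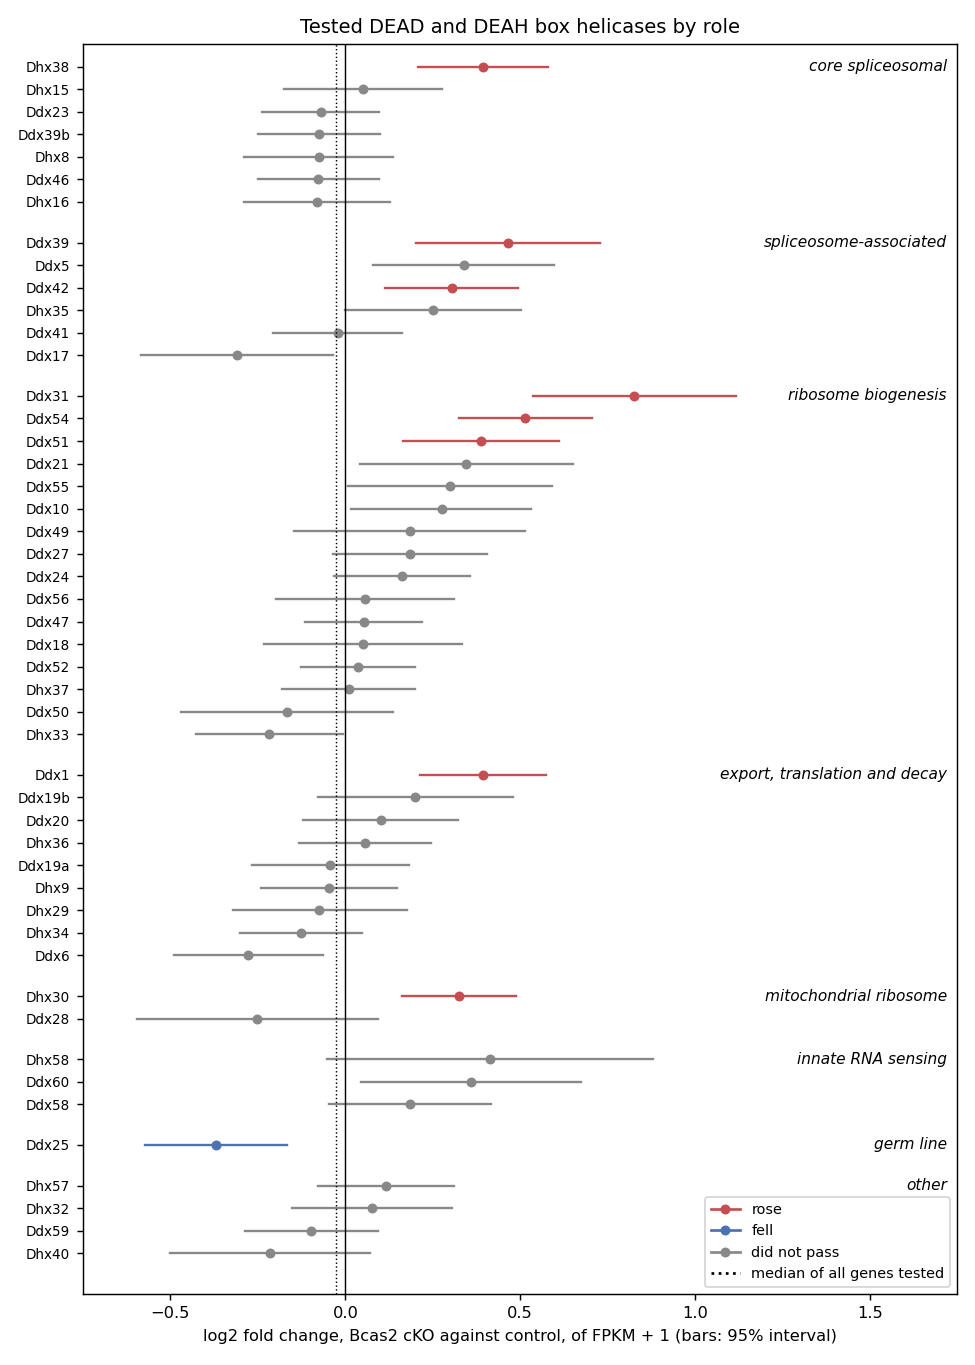
Log2 fold change of FPKM + 1, Bcas2 cKO against control, for the 48 tested helicases in groups of role, with bars for the 95% interval and colours for the limma call. The solid line is at 0 and the dotted line at -0.03, the median of all genes tested. Ddx31 at 0.83 and Ddx25 at -0.37 are the ends of the range, and the core spliceosomal helicases other than Dhx38 lie between -0.08 and 0.05.

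Levels spread widely within the family. Ddx5, an RNA helicase that works in transcription and splicing, stood first with 297.6 ± 23.7 FPKM in control and 376 ± 15.4 in Bcas2 cKO (SD, n = 3 each). It made up 32.3, 36.2 and 33.05% of the summed FPKM of all 51 members in the control libraries and 37.9, 38.3 and 41.1% in Bcas2 cKO, without overlap. Ddx17, its close relative, was next at 91.998 ± 12.5 and 73.6 ± 1.84 FPKM, then Ddx39b at 52.3 ± 2.09 and 49.6 ± 1.03 and Ddx6 at 41.3 ± 3.399 and 33.9 ± 1.91. These 4 are separated from each other by more than their spread in either group. Below them the order is close: Dhx15, Ddx23, Ddx18, Ddx19a, Ddx46, Ddx56, Ddx24 and Dhx16 all had group means between 10.9 and 14.3 FPKM, and their order was not the same in control and Bcas2 cKO. The summed FPKM of the family was 878 ± 19.2 in control and 962 ± 24.9 in Bcas2 cKO, and without Ddx5 it was 580 ± 11.4 and 586 ± 26.9. The sum without Ddx5 overlapped between the groups.

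Among the 7 core spliceosomal helicases, Dhx38 rose and the other 6 did not pass the test. That is 14.3% called, close to the 14.5% of all genes tested that rose or fell. The share without overlap was also 14.3%, beside 38.0% of all genes tested. Dhx38 (ENSMUSG00000037993, chromosome 8, 109548011 to 109565861) encodes the counterpart of yeast Prp16, which remodels the spliceosome after the first chemical step. Control libraries 1, 3 and 4 had 8.06, 7.41 and 7.20 FPKM and Bcas2 cKO libraries 3, 4 and 5 had 10.3, 9.65 and 10.8. Every knockout library lay above every control library. The log2 fold change was 0.39 (SE 0.08, 95% interval 0.21 to 0.58, limma adjusted p 0.021). Of 6 fits without 1 library each, 4 lost the call, those without control library 3 or 4 or Bcas2 cKO library 3 or 5, where the limma adjusted p was 0.053 to 0.077. The fold change in those fits stayed between 0.36 and 0.39.

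The other core members were near level. Ddx39b, which loads early spliceosome factors and also serves mRNA export, had 54.3, 52.5 and 50.1 FPKM in control and 50.6, 48.5 and 49.6 in Bcas2 cKO. Ddx46, the counterpart of yeast Prp5 at the branch site, had 12.1, 13.04 and 13.6 FPKM in control and 12.5, 11.8 and 12.2 in Bcas2 cKO. Both overlapped between the groups. Ddx23, the Prp28 counterpart of the U5 particle that acts at the 5′ splice site, had 14.01, 13.3 and 14.3 FPKM in control and 12.7, 13.7 and 13.1 in Bcas2 cKO. Dhx16, the Prp2 counterpart that completes activation just after the Prp19 complex has joined, had 11.6, 12.4 and 10.8 FPKM and 10.3, 11.96 and 10.49. These overlapped as well. Dhx8, which frees the spliced mRNA, was 7.09 ± 0.485 and 6.68 ± 0.628 FPKM, and Dhx15, which frees the intron, was 13.8 ± 1.44 and 14.3 ± 0.796 (SD, n = 3 each). The log2 fold changes of these 6 lay between -0.08 and 0.05. Their 95% intervals reached no lower than -0.29 (Dhx16 and Dhx8) and no higher than 0.28 (Dhx15), which does not show that the levels were equal. None of the 7 fell with limma, also with limma voom on recovered reads, and none was lower at an unadjusted p under 0.05. The summed FPKM of the 7 was 119.6, 119.7 and 118.1 in control and 117.2, 118.05 and 115.9 in Bcas2 cKO, a ratio of the means of 0.983. The lowest control library and the highest knockout library all but met.

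**Figure D2:**
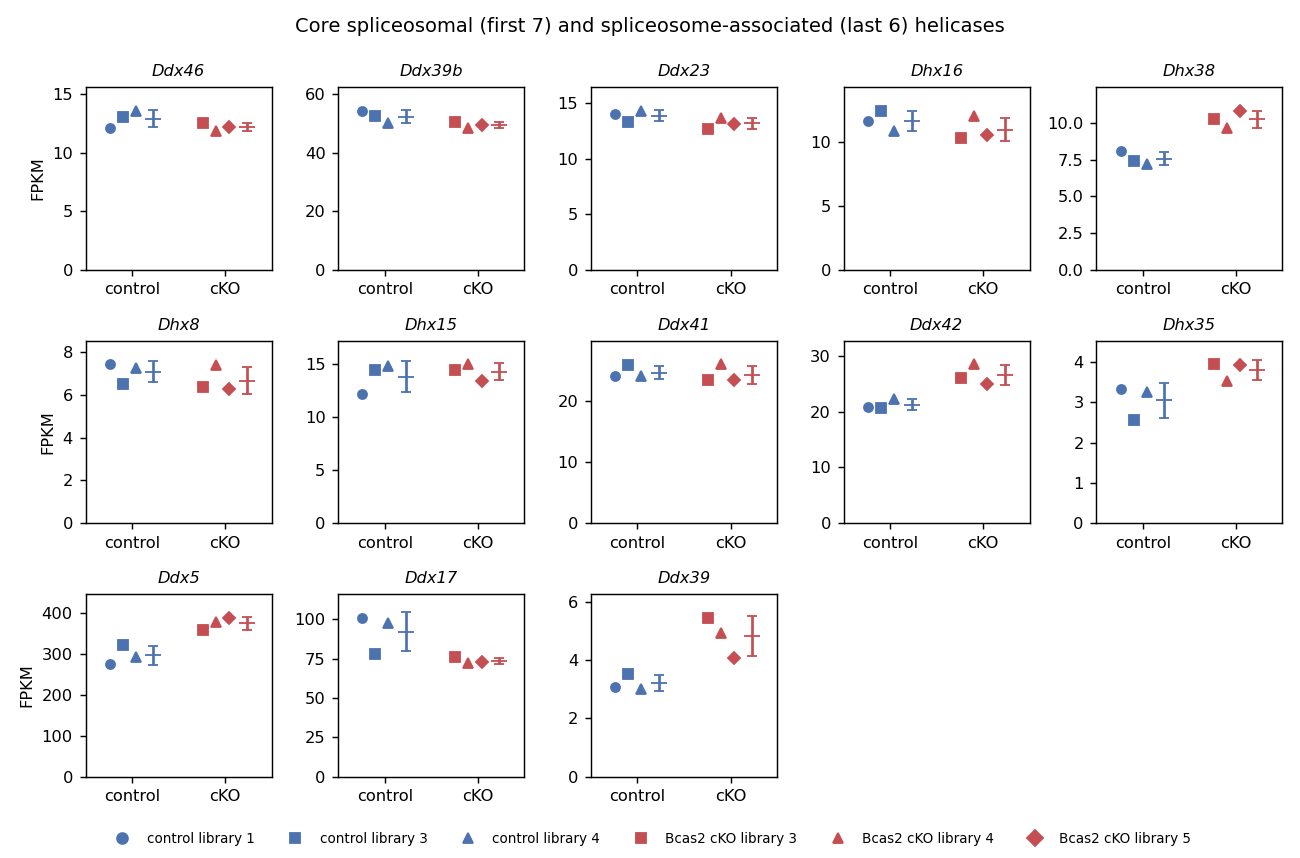
FPKM (y axis, from 0) of the 7 core spliceosomal and the 6 spliceosome-associated helicases in each library, one symbol a library, with the mean and SD of each group (n = 3) beside the points. Dhx38 sits at 7.20 to 8.06 FPKM in control and 9.65 to 10.8 in Bcas2 cKO, while the other 6 core members overlap between the groups.

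Of the 6 helicases that bind the spliceosome or regulate splice choice, Ddx42 and Ddx39 rose, none fell, and 4 did not pass. The rises are 33.3% of this small set, beside 6.97% of all genes. The share without overlap was 83.3%, beside 38.0%. Ddx42 (chromosome 11, 106216926 to 106249139) encodes a partner of the SF3B part of the U2 particle. It had 20.9, 20.6 and 22.3 FPKM in control and 26.1, 28.5 and 25.01 in Bcas2 cKO, without overlap. Its log2 fold change was 0.30 (SE 0.08, limma adjusted p 0.049), and the call was lost whichever of the 6 libraries was left out. Ddx39 (chromosome 8, 83715177 to 83726892), the export and splicing factor closest in sequence to Ddx39b, had 3.09, 3.52 and 2.998 FPKM in control and 5.45, 4.94 and 4.08 in Bcas2 cKO, with Bcas2 cKO library 5 the lowest of its group. Its log2 fold change was 0.47 (SE 0.11, limma adjusted p 0.037), and the call held in 1 of the 6 fits, that without Bcas2 cKO library 5. Ddx39 overlaps Adgre5 on the other strand in the table, and whether the counting used strand is not known from the sources used here, so reads of the pair cannot be told apart where they overlap.

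Ddx5 and Ddx17, which form a pair of coregulators of splicing and transcription, pointed in opposite directions and neither passed the test. Ddx5 (chromosome 11, 106780355 to 106789185) had 277, 323.5 and 292 FPKM in control and 359, 379.5 and 389 in Bcas2 cKO. Ddx17 (chromosome 15, 79527736 to 79546741) had 101, 77.7 and 97.4 FPKM in control and 75.7, 72.3 and 72.7 in Bcas2 cKO. The groups did not overlap for either gene, but control library 3 lay closest to the knockout libraries for both. Ddx17 overlaps Kdelr3 on the other strand in the table, and with the strand setting unknown their reads cannot be told apart there. The log2 fold changes were 0.34 for Ddx5 (SE 0.11, limma adjusted p 0.084) and -0.31 for Ddx17 (SE 0.12, limma adjusted p 0.12). Ddx17 passed the test without control library 3 (-0.43, limma adjusted p 0.031), and Ddx5 with limma voom (0.34, adjusted p 0.046). Dhx35, found in spliceosomes after the first step, was higher without overlap, 3.05 ± 0.436 and 3.80 ± 0.238 FPKM, and did not pass (0.25, limma adjusted p 0.16). Ddx41, a late spliceosome component also known from the sensing of DNA, overlapped at 24.7 ± 1.01 and 24.3 ± 1.496 FPKM (-0.02, 95% interval -0.21 to 0.16).

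A ratio of related members within a library does not depend on how that library was scaled, and 7 such pairs were compared. The ratio of Ddx5 to Ddx17 was 2.75, 4.16 and 2.9997 in control and 4.74, 5.25 and 5.35 in Bcas2 cKO. The ratio of Ddx39 to Ddx39b was 0.0570, 0.0671 and 0.0598 in control and 0.108, 0.102 and 0.0824 in Bcas2 cKO. Ddx21 and Ddx50, a pair of nucleolar helicase genes that lie side by side on chromosome 10 (62580251 to 62602281 and 62615895 to 62651218, both on the minus strand), gave the tightest values. Their ratio was 0.586, 0.575 and 0.601 in control and 0.853, 0.870 and 0.869 in Bcas2 cKO, 0.588 ± 0.0131 against 0.864 ± 0.00970 (SD, n = 3 each). Neither gene passed the test alone: Ddx21 was 9.31 ± 0.626 and 12.2 ± 2.23 FPKM and Ddx50 15.8 ± 0.954 and 14.1 ± 2.53 FPKM, so the libraries within Bcas2 cKO differed in level while the ratio stayed close. Of the 7 ratios, 4 did not overlap between the groups (these 3 and Dhx8 to Dhx38) and 3 did. Among single genes tested, 38.0% did not overlap. No share was computed for ratios of other gene pairs, so the count of 4 has no background of its own. A 2-sided exact permutation test of 3 against 3 libraries cannot go below 0.1, so that test could bring none of the ratios under 0.05. No test of the ratios was run.

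**Figure D3:**
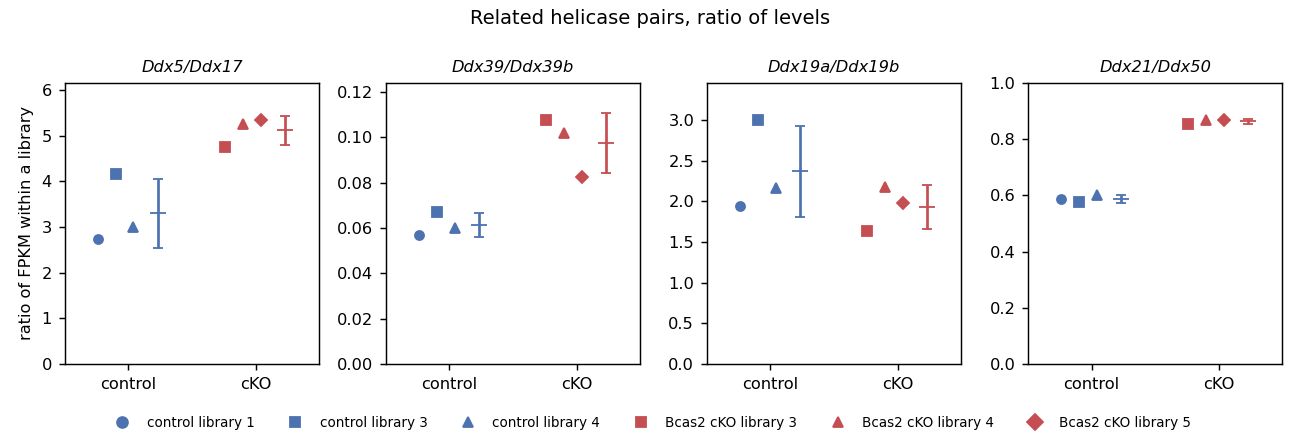
Ratio of FPKM within each library (y axis, from 0) for 4 pairs of related helicases, one symbol a library, with the mean and SD of each group (n = 3). The Ddx21 to Ddx50 ratio lies between 0.575 and 0.601 in control and between 0.853 and 0.870 in the knockout, while the Ddx19a to Ddx19b ratio overlaps.

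How far reads can pass between such relatives depends on their likeness. The coding sequences of Ddx19a and Ddx19b were 93.2% identical over the aligned bases, with an identical run of 275 bases, so the division of reads between these 2 genes is uncertain. Ddx39 and Ddx39b were 81.2% identical with a longest run of 26 bases, Ddx21 and Ddx50 72.1% with 23 bases, and Ddx5 and Ddx17 71.2% with 21 bases. The pairs of the core spliceosome that were compared (Dhx8 with Dhx16 and with Dhx38, Dhx15 with Dhx16) were 63.5 to 64.7% identical with runs of at most 15 bases.

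Of the 16 helicases of ribosome assembly, 3 rose (18.8%, beside 16.7% of the 48 tested helicases and 6.97% of all genes) and none fell with limma (1 was lower at an unadjusted p under 0.05, and none fell with limma voom). These proteins free small nucleolar RNAs from ribosomal RNA precursors or fold the precursors in the nucleolus. Ddx31 (ENSMUSG00000026806, chromosome 2, 28840406 to 28905571), a nucleolar helicase of the large ribosomal subunit, had 7.15, 8.95 and 6.70 FPKM in control and 14.6, 15.5 and 12.6 in Bcas2 cKO. The lowest knockout library was well above the highest control library. The log2 fold change of 0.83 (SE 0.12, 95% interval 0.54 to 1.12, limma adjusted p 0.0086) was the highest in the family. Ddx54 (chromosome 5, 120612739 to 120628592), a nucleolar helicase that also binds nuclear receptors, had 5.18, 4.57 and 4.41 FPKM in control and 7.24, 7.32 and 6.91 in Bcas2 cKO. Its log2 fold change was 0.51 (SE 0.08, limma adjusted p 0.00995). Ddx54 overlaps Cfap73 and an antisense gene in the table, both on the other strand. Ddx51 (chromosome 5, 110653451 to 110660496), which acts on the 3′ end of the large subunit RNA, had 4.25, 3.90 and 4.18 FPKM in control and 5.82, 6.29 and 5.005 in Bcas2 cKO. Its log2 fold change was 0.39 (SE 0.09, limma adjusted p 0.037), and the call held only without Bcas2 cKO library 5 among the 6 fits that leave a library out.

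The other 13 of this group did not pass, and 14 of all 16 had a log2 fold change above 0, with a median of 0.17. Ddx21, which couples transcription by RNA polymerase I to rRNA processing, had 8.65, 9.40 and 9.89 FPKM in control and 11.7, 14.7 and 10.3 in Bcas2 cKO (0.35, limma adjusted p 0.12). Ddx10 was 4.79 ± 0.603 and 5.99 ± 0.632 FPKM and Ddx24 11.3 ± 0.260 and 12.7 ± 1.12 FPKM (SD, n = 3 each), both higher without overlap. Ddx55 (0.30), Ddx49 (0.18), Ddx27 (0.18), Ddx56 (0.06), Ddx47 (0.05), Ddx18 (0.05), Ddx52 (0.04) and Dhx37 (0.01), given with their log2 fold changes, overlapped between the groups. Ddx50 (-0.17) and Dhx33 (-0.22) were the members below 0. Dhx33 was lower without overlap, 4.09, 4.09 and 4.48 FPKM in control against 3.71, 3.66 and 3.12 in Bcas2 cKO (limma adjusted p 0.145). Of 35 other genes of ribosome assembly, 4 rose and none fell with limma (none lower at an unadjusted p under 0.05 and none fallen with voom), 11.4% beside the 6.97% of all genes, with a median log2 fold change of 0.20. They were Bop1 (0.56), a large subunit factor, Ltv1 (0.45), an export factor of the small subunit, Fbl (0.43), the methylase fibrillarin, and Nop14 (0.35).

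**Figure D4:**
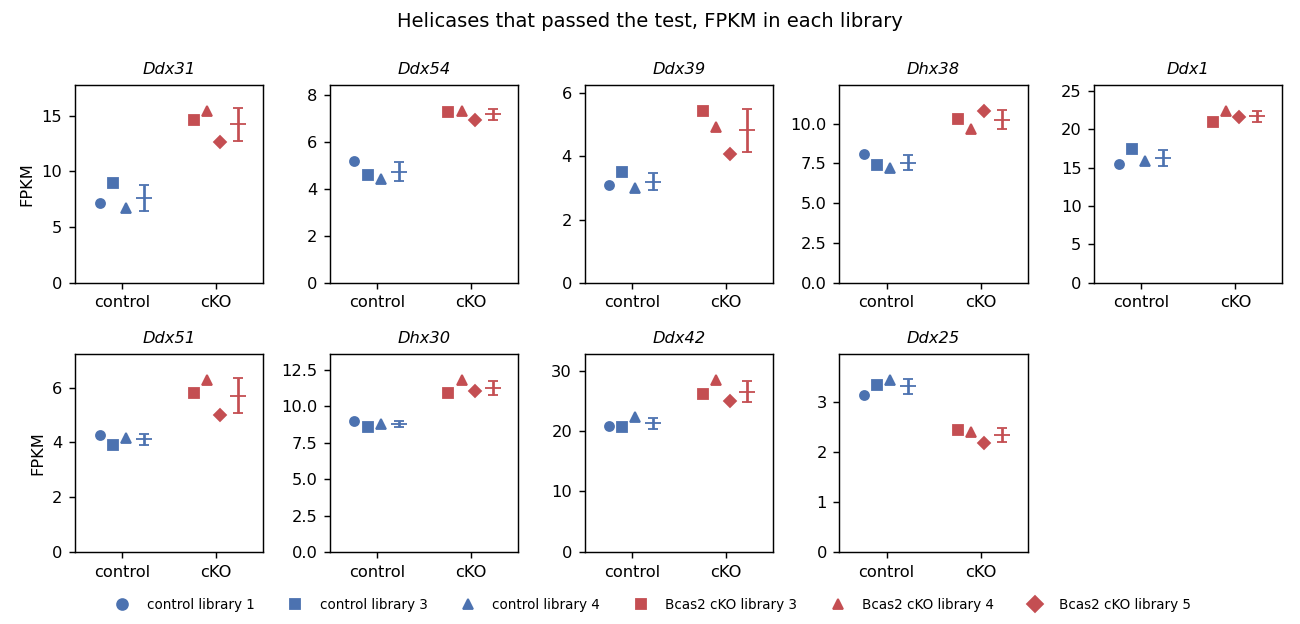
FPKM (y axis, from 0) in each library of the 9 helicases that passed the test, in order of their log2 fold change, one symbol a library, with the mean and SD of each group (n = 3). In all 9 panels the 3 control and the 3 Bcas2 cKO libraries do not overlap, and Bcas2 cKO library 5 is the lowest of its group for Ddx31, Ddx54, Ddx39, Ddx51, Ddx42 and Ddx25.

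Of the 9 helicases of mRNA export, translation and decay, Ddx1 rose (11.1%, beside 6.97% of all genes). None fell with limma (1 lower at an unadjusted p under 0.05, none fallen with voom). Ddx1 (chromosome 12, 13216973 to 13249213) belongs to the tRNA ligase complex, which joins cut tRNAs and the cut Xbp1 mRNA. It had 15.5, 17.4 and 15.9 FPKM in control and 20.95, 22.4 and 21.6 in Bcas2 cKO. The log2 fold change was 0.39 (SE 0.08, limma adjusted p 0.019), and the call was lost in 4 of the 6 fits, without control library 4 or any 1 of the Bcas2 cKO libraries. Ddx6, which represses translation and feeds mRNA into decapping in P-bodies, was lower without overlap, 38.9, 39.7 and 45.2 FPKM in control and 34.7, 35.2 and 31.7 in Bcas2 cKO. It did not pass the test (-0.28, SE 0.09, limma adjusted p 0.086). Dhx34, which acts in nonsense-mediated decay, was also lower without overlap, 10.7 ± 0.604 and 9.67 ± 0.335 FPKM, and did not pass (-0.13, limma adjusted p 0.28). Dhx9, which unwinds RNA and RNA-DNA hybrids, overlapped at 17.8 ± 1.12 and 17.2 ± 1.01 FPKM. Ddx19a (-0.04), Ddx19b (0.20), Dhx29 (-0.07), Dhx36 (0.06) and Ddx20 (0.10) overlapped too.

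Dhx30 and Ddx28 act in the assembly of the mitochondrial ribosome. Dhx30 (chromosome 9, 110084320 to 110117830) rose, from 9.003, 8.58 and 8.81 FPKM in control to 10.9, 11.8 and 11.1 in Bcas2 cKO, with a log2 fold change of 0.32 (SE 0.07, limma adjusted p 0.026). The call held in 1 of the 6 fits, that without control library 1. It overlaps Smarcc1 on the other strand in the table. Ddx28 pointed the other way, 3.62, 4.55 and 4.12 FPKM in control and 2.49, 3.57 and 3.90 in Bcas2 cKO, with overlap (-0.25, limma adjusted p 0.29). Its lowest library held 102 reads, and Ddx28 overlaps Dus2 on the other strand in the table.

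The 3 sensors of foreign RNA were low, and none passed the test with limma (1 higher at an unadjusted p under 0.05, and Ddx60 risen with limma voom, adjusted p 0.041). Ddx58, which encodes RIG-I, had 3.96, 3.09 and 3.42 FPKM in control and 4.35, 3.89 and 4.04 in Bcas2 cKO. Dhx58, which encodes LGP2, had 1.21, 2.35 and 1.56 FPKM and 3.39, 2.22 and 2.18. Both overlapped between the groups. Ddx60, an interferon-induced helicase, had 1.40, 1.04 and 1.497 FPKM and 2.23, 1.73 and 1.93, without overlap (0.36, SE 0.13, limma adjusted p 0.12). The antisense gene Dhx58os overlaps Dhx58. Of the 14 tested genes of the interferon response, 4 rose (28.6%, beside 6.97% of all genes) and none fell with limma (none lower at an unadjusted p under 0.05, none fallen with voom). Voom called 5 rises. The 4 were Isg15 (0.56), a ubiquitin-like protein, Rtp4 (0.69), Ifit3 (1.20) and the regulator Irf1 (1.66). Ifit3 averaged 0.39 FPKM in control and 2.13 in Bcas2 cKO, so it passed the filter only through the group where it was high. The lowest library held 3 reads for Ifit3 and 14 for Isg15, and the 28.6% counts both genes. The summed macrophage and lymphocyte markers, averaged 238 FPKM in control and 309.6 in Bcas2 cKO with ranges that just overlapped, and their part in these values was not tested.

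Ddx25, a helicase best known from male germ cells, was the 1 member that fell. Ddx25 (chromosome 9, 35536647 to 35558528) had 3.14, 3.34 and 3.45 FPKM in control and 2.44, 2.39 and 2.17 in Bcas2 cKO, on at least 260 reads a library. The log2 fold change was -0.37 (SE 0.09, limma adjusted p 0.034), and of the 6 fits without 1 library, that without control library 1 held the call. The 2 other germ line members, Ddx4 and Ddx43, and Ddx11 of genome maintenance were under the mean of 1 FPKM and were not tested. Ddx4, the germ cell marker Vasa, was at most 0.221 FPKM in any library, and Ddx43 was listed at 0 in all control libraries and in Bcas2 cKO library 4. Ddx11 was 0.664 ± 0.184 and 0.700 ± 0.117 FPKM. Ddx60 with a mean of 1.64 FPKM was the first above the limit and Ddx11 with 0.682 the first below. Among the members outside these roles, Dhx32 (0.08), Dhx40 (-0.21), Dhx57 (0.12) and Ddx59 (-0.10) did not pass with limma or with limma voom (none at an unadjusted p under 0.05), and Ddx59 was lower without overlap.

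RNA helicases that carry other names gave a second view. Of 17 listed, 2 rose (11.8%, beside 6.97% of all genes) and none fell with limma (1 lower at an unadjusted p under 0.05). With voom, 4 rose and none fell. Eif4a1, the helicase of translation initiation, had 35.3, 48.5 and 42.1 FPKM in control and 66.1, 75.2 and 66.3 in Bcas2 cKO (0.72, SE 0.13, limma adjusted p 0.015). Skiv2l, which feeds RNA to the cytoplasmic exosome, had 19.3, 18.2 and 16.9 FPKM and 29.9, 31.9 and 30.7 (0.74, SE 0.08, limma adjusted p 0.0031). Eif4a2, the close relative of Eif4a1, was 134.5 ± 21.9 and 106 ± 6.33 FPKM and did not pass (-0.33, limma adjusted p 0.14). Snrnp200 and Aqr, spliceosomal helicases of this list, were near level: Snrnp200, which unwinds U4 from U6 during activation, was 20.3 ± 2.16 and 18.8 ± 0.497 FPKM, and Aqr 5.98 ± 0.411 and 5.70 ± 0.0793 FPKM, neither past the test. Of the 28 tested cofactors that bind these helicases, Gpatch1 (0.43) and Alyref (0.51) rose, and none fell with limma (1 lower at an unadjusted p under 0.05, none with voom), with a median of -0.01. Those 2 are 7.14% of the list, close to the 6.97% of all genes.

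Promoters of 45 of the 51 members were found in RefSeq (GRCm38.p6), as 56 windows from 250 bases before to 50 bases after a start. Of 4 motifs searched on both strands, the palindrome TGACGTCA was in 5 of the 45 genes (Ddx19a, Ddx28, Ddx49, Ddx51 and Dhx36). It was in 10.7% of the members' windows, against 1.79% of all 32851 promoter windows. Among the 9 called members it was found before Ddx51. CACGTG was in 7 of the 45 genes and 12.5% of their windows, against 7.15% of all, and among the called members it was found for Ddx42 and Ddx25. A pair of GAAA repeats with 2 bases between was in 3 genes (Ddx49, Ddx58 and Ddx60) and 7.14% of windows against 3.44% of all. A pair of GCGC repeats with AT between was in 2 genes (Dhx34 and Dhx37) and 5.36% of windows against 0.971% of all. Overlapping windows of a gene can hold the same site. The GCGC site of Dhx34 and the TGACGTCA and GAAA sites of Ddx49 were each counted in 2 windows, which raises the members' shares. Repeats among all promoter windows were not counted apart. Apart from Ddx51 and Ddx60, the members with TGACGTCA or the GAAA motif overlapped between the groups and did not pass the test. The stretches before Ddx51 and Ddx60, 2 members whose groups did not overlap, show the TGACGTCA and the GAAA motif in capitals. They are given on the strand of the gene, with both motifs ending before its start.
Ddx51, chr5:110653382-110653439: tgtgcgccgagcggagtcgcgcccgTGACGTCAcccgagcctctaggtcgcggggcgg
Ddx60, chr8:61928009-61928068: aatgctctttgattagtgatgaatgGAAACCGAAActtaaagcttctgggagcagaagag
These are matches of letters in these windows, and no binding was measured.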

How the data were processed

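RNA-seq was made from 3 control and 3 Bcas2 cKO islet samples with Trizol extraction and a SMARTer mRNA-seq kit, per the labels' protocols. The authors deposited 1 table of FPKM with gene lengths and coordinates, per the file headers, on build GRCm38 (mm10), per the submitters' processing notes. The sources used here name no aligner, counter or strand setting. FPKM times gene length gave whole reads (within 0.01 of a read) for 100% of the values above 0. These reads and the deposited FPKM differed in depth by a factor of 0.890 to 1.11, so the authors scaled the libraries by a step that is not given. The factor was 1.017, 0.890 and 0.967 in control libraries 1, 3 and 4. It was 1.109, 1.042 and 1.02 in Bcas2 cKO libraries 3, 4 and 5. Every knockout factor was above every control factor, though control library 1 and Bcas2 cKO library 5 nearly met.

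A gene was tested if it averaged 1 FPKM or more over the 6 libraries. The test was limma 3.58.1 in R 4.3.3 (lmFit, eBayes with trend) on log2(FPKM + 1), with Benjamini-Hochberg adjustment over all 13723 genes. On 5 data sets simulated for this comparison, a change of 0.5 on the log2 scale was recovered for 23.6% of changed genes. A change of 1 was recovered for 87.2% and a change of 2 for 98.5%, in fits over 13723 genes. Few genes were changed in each simulated set, and all genes had the same spread beyond that of counting. The adjustment is stricter when few genes change, and 14.5% of genes were called in the real data, so these shares are not the power of the real test. Tables used Python 3.11.15. The members, lists, roles and the rule for named genes (Bcas2, all splicing helicases, every called member, the 3 highest members of each other role, members next to the filter, and up to 4 called genes of each related list) were chosen with earlier results of these data known. Members outside the rule were named to account for the whole family. No protein sequences were used here, so likeness was computed from coding sequences. Alternatives were other pseudocounts, filters, scalings and variance models, voom on recovered reads, a block on the shared numbers and leaving out each library.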

Additional observations from a re-analysis of the deposited data

How the results depend on the processing

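Across 17 alternatives no called helicase changed the sign of its log2 fold change where it was tested. Of the 39 that did not pass, 13 changed sign in at least 1 alternative, and Ddx5, Ddx17, Ddx6 and Ddx60 passed in at least 1. Ddx31 and Ddx54 were called in 16 of the 17. Leaving out 1 library gave 466 to 956 rises and 391 to 994 falls over all genes, 2 to 5 rises and 0 to 1 falls among the helicases, 0 to 1 rises in the core spliceosomal set, 0 to 1 rises and 0 to 1 falls in the spliceosome-associated set, and 2 to 3 rises in ribosome assembly. Without a filter on low values, 628 genes rose and 516 fell, with 5 and 0 helicases and 0 rises in the spliceosome-associated set. With a mean of at least 5 FPKM, 0 helicases fell, since Ddx25 was below it, and 1 spliceosome-associated member rose. That count was also 1 when the libraries were rescaled without the hormone genes and with eBayes without trend, and the cause was not tested. Dividing the deposited FPKM by the share of reads outside the hormone genes, chosen after seeing the data and applied on top of the authors' scaling, shifted the medians: the log2 fold change over all genes went from -0.03 to -0.16 and over the helicases from 0.06 to -0.08. Then 630 genes rose and 1870 fell (25.2% rises among calls against 48.0%), with 2 rises and 3 falls among the helicases, 0 rises in the core set, and 0 rises and 1 fall in the associated set. Ribosome assembly had 2 rises, Ddx31 and Ddx54. The control and cKO columns share the numbers 3 and 4, which the labels do not say mark shared animals. The deviations of the libraries numbered 3 had a correlation of -0.149 and those numbered 4 of 0.0453. With a replicate block on these numbers, where the difference rests on the 4 libraries numbered 3 and 4, 352 genes rose and 186 fell. No helicase was called by limma then: 0 rose and 0 fell, with 10 at an unadjusted p under 0.05, so 0 rose in the core, associated and ribosome assembly sets. The adjusted p was 0.054 for Ddx31 (log2 fold change 0.87) and 0.069 for Ddx54 (0.59). The lowest library of a tested member held 63 reads (Dhx58), which limits the precision of the RNA sensors.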

Other observations

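Across the 48 tested helicases the log2 fold change had a Pearson correlation of -0.126 with log2 mean FPKM (Spearman -0.178), and with log2 gene length -0.085 (Spearman -0.041). These are descriptions across genes of the same 6 libraries, which share depth and scaling, and genes are not independent replicates.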
